A study of Mus musculus with 16 samples.

Results

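The RNA of 7 hormone receptor genes was followed in mouse adrenal glands: the oestrogen receptors Esr1 and Esr2, the progesterone receptor Pgr, the glucocorticoid receptor Nr3c1, the mineralocorticoid receptor Nr3c2, the prolactin receptor Prlr and the growth hormone receptor Ghr. They were chosen by name, with earlier results of these data known. They were found through their Ensembl identifiers among the 54838 genes of the deposited count table. Of the 7, 6 had enough counts to be tested and Esr2 did not. The libraries came from 16 individual mice of mixed genetic background, 4 weeks old, in 4 groups of 4: female and male controls, and females and males with an Rspo1 gain of function (GOF). R-spondin 1, the product of Rspo1, is a secreted protein that strengthens WNT signalling. Which promoter or Cre drives the gain of function, in which cells, and what alleles the controls carry are not given in the sources used here. The study compared the sexes in control and GOF adrenals.

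The adrenal cortex makes the corticosteroids, and the medulla at its centre makes adrenaline and noradrenaline. Esr1, Esr2, Pgr, Nr3c1 and Nr3c2 encode nuclear receptors, which bind a steroid, enter or already sit in the nucleus, and act on transcription at DNA sites together with chaperones and coregulators. Prlr and Ghr encode related receptors of the cell surface, which bind the pituitary hormones prolactin and growth hormone and signal through the kinase JAK2 and the STAT5 transcription factors. The X-zone, an inner cortical layer of young mice, persists longer in females than in males.

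Library totals ran from 31275146 to 43003968 counts, and RNA levels are in CPM (counts per 1000000 of the library, after TMM scaling). Rspo1 stood at 3.2 to 48.2 CPM in the 8 control libraries and at 354 to 972 CPM in the 8 GOF libraries, and Ddx3y, a gene of chromosome Y, had 0 counts in every female library and at least 4650 in every male library. The steroidogenic cortex list of 5 genes, which marks the labelled tissue, summed to 12699 CPM or more in every library. Transcripts of other organs stood out in 3 control libraries. The summed level of 10 liver genes was 9685 CPM in male control 2, against 8.19 to 781 CPM in the other 15 libraries. The 9 kidney tubule genes summed to 966 CPM for female control 1 and to 167 CPM for female control 3, against 0.286 to 2.17 CPM in the other 14. Each receptor result is therefore also given, where it changed, without these 3 libraries.

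Per unit of transcript length, Prlr was the most abundant of the 7 receptor RNAs in 3 of the 4 groups, and Pgr and Esr2 were the least abundant in all 4. In the deposited FPKM values (fragments scaled by transcript length and library total), Prlr averaged 194 ± 30.1 in female controls, 203 ± 35.6 in female GOF, 69.2 ± 9.58 in male controls and 129.9 ± 12.2 in male GOF (SD, n = 4). In male controls Ghr, at 86.1 ± 20.8 FPKM, lay above Prlr. The mean of Prlr exceeded that of 97.0% of the 18214 tested genes in female controls and of 89.7% in male controls. Nr3c1 averaged 11.8 to 25.8 FPKM over the groups, Esr1 8.48 to 18.5, Nr3c2 4.53 to 7.79, and Pgr and Esr2 at most 0.231 FPKM.

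**Figure D1:**
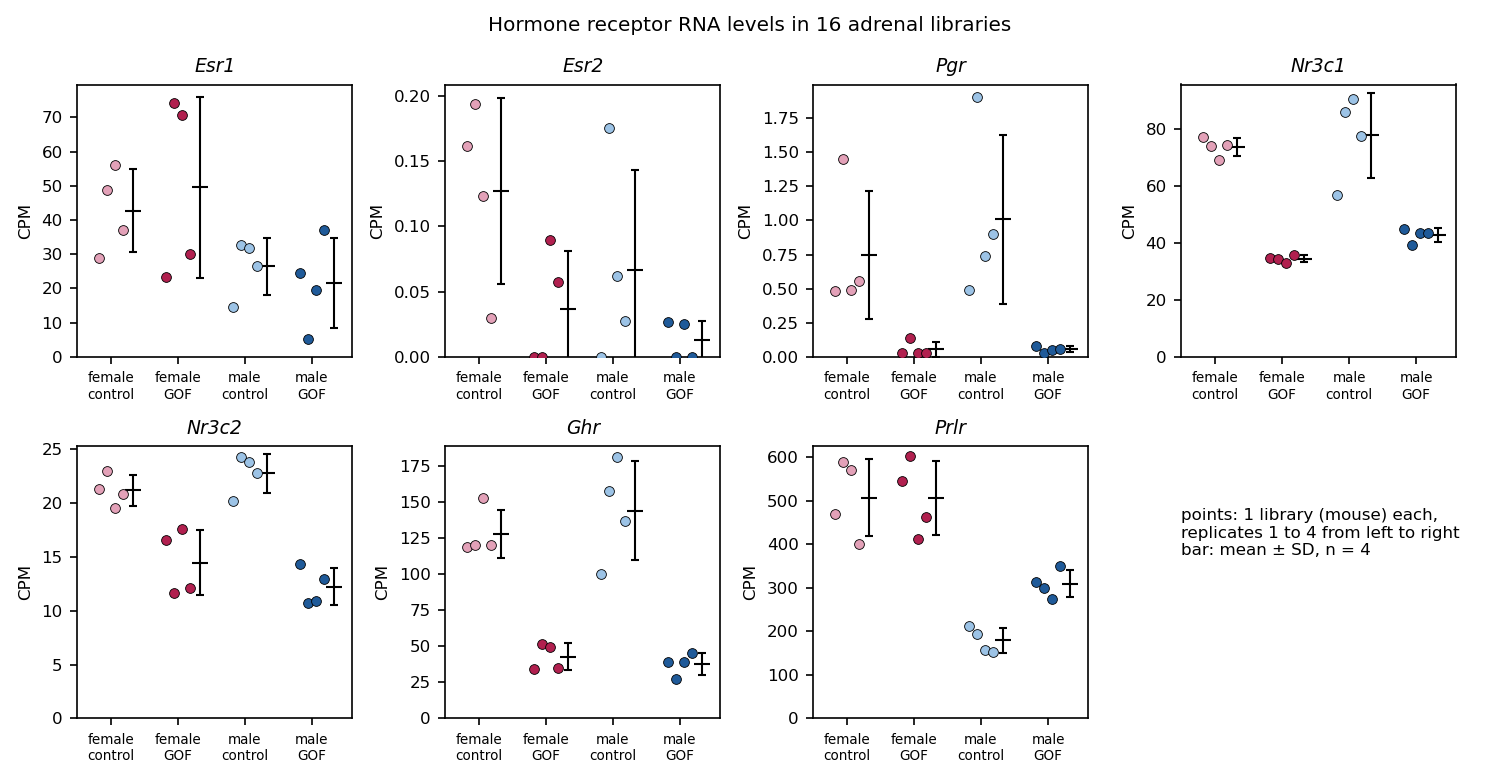
RNA level (CPM, linear axis from 0) of the 7 receptor genes in each of the 16 libraries, by group; points are libraries, and the line and bar give the mean and SD (n = 4). Nr3c1, Nr3c2, Ghr and Pgr lie lower in GOF than in control of the same sex with no overlap, while Prlr lies lower in males than in females and rises from 153 to 212 CPM in male controls to 275 to 349.5 CPM in male GOF.

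Pgr, Nr3c1, Nr3c2 and Ghr were lower in GOF adrenals of both sexes, and Prlr was lower in males of both genotypes. A gene was called where edgeR's quasi-likelihood test gave a Benjamini-Hochberg adjusted p under 0.05 over all 18214 tested genes. In females 4 of the 6 tested receptors were called between GOF and control, all of them lower (Pgr, Nr3c1, Nr3c2 and Ghr), where 39.6% of all tested genes were called and 20.6% were called lower. In males 5 of 6 were called, those 4 lower and Prlr higher, where 36.9% of all genes were called, 21.8% lower and 15.2% higher. Pgr passed the filter on low counts only through its control libraries, so its place in these counts is a description, and without it 3 of 5 were called in females and 4 of 5 in males. The called receptors were also those whose libraries did not overlap between the groups, as was the case for 37.8% of all genes in females and 33.1% in males. Between the sexes in controls 1 of 6 was called and did not overlap, Prlr, lower in males. Of all genes 23.4% were called there, 9.89% lower in males, and 25.3% did not overlap. In GOF 2 of 6 were called and did not overlap, Prlr lower and Nr3c1 higher in males, where 29.6% of all genes were called, 16.3% lower and 13.3% higher, and 29.1% did not overlap. The interaction of sex and genotype asks whether the GOF effect differs between the sexes. Here 1 of 6 was called, Prlr, against 4.21% of all genes, 1.59% in its direction. The split of all calls by direction depended on the scaling, the filter and the libraries kept. Of the male genotype calls 41.1% were higher in GOF as reported, 51.2% with upper-quartile factors and 61.3% with limma on log2(FPKM + 1), and of the female ones 48.0% as reported and 60.7% with that limma fit. The female share was 38.6% with no filter on low counts and 36.7% without the 3 libraries with liver or kidney transcripts. Between the sexes in GOF the share higher in males was 44.9% as reported and 55.2% with upper-quartile factors, and for the interaction 37.9% and 62.6%. In controls that share was 57.8% as reported and 44.7% without those 3 libraries. The number of genes called moved as well. For the interaction it was 766 as reported, 1432 with DESeq2 and 175 without the 3 libraries. Between the sexes in controls it was 4267 as reported and 1648 without them. The comparisons of genotype within females and within males share no library, but each shares a group with both comparisons of the sexes, so the 5 are not independent. Each value rests on bulk tissue, in which fewer cells of a type and less RNA per cell cannot be told apart.

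**Figure D2:**
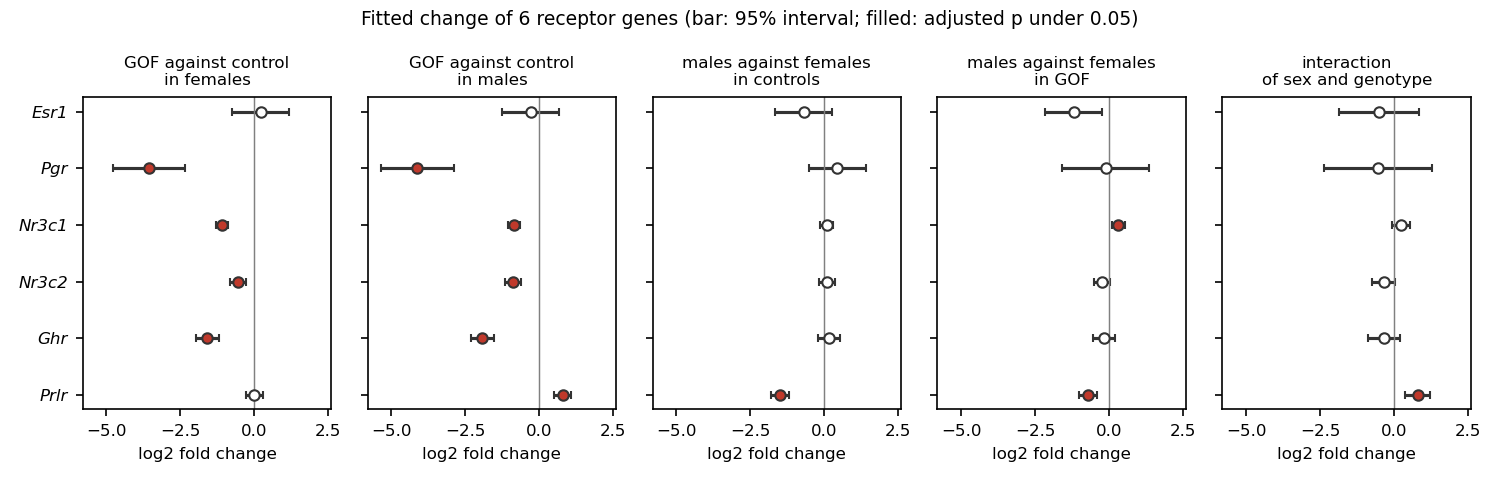
Fitted log2 fold change of the 6 tested receptor genes in each of the 5 comparisons, with bars for the 95% interval; filled symbols have an adjusted p under 0.05. Pgr, Nr3c1, Nr3c2 and Ghr lie left of 0 in both genotype comparisons, and Prlr lies right of 0 in males and near 0 in females.

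The start regions of 4 genes that the genotype comparisons turn on are given as the 250 bases before the start sites annotated by RefSeq on GRCm38.p6. Tables of these windows held 6 of the 7 receptors, with 10 windows in all. Capitals mark the matches found, and a window in lower case holds none.

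Prlr window 1, chr15:10176988-10177237, plus strand: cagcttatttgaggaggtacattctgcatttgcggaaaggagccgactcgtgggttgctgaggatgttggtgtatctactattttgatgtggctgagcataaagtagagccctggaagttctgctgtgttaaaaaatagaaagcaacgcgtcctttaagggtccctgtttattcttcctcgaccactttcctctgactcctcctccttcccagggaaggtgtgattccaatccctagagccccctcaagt

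Prlr window 2, chr15:10223656-10223905, plus strand: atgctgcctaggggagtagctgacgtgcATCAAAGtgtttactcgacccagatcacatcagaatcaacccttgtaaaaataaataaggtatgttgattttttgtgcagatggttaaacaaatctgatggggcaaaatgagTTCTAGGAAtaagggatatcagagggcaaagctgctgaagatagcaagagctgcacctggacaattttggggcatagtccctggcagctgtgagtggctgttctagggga

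Ghr window 2, chr15:3583353-3583602, minus strand: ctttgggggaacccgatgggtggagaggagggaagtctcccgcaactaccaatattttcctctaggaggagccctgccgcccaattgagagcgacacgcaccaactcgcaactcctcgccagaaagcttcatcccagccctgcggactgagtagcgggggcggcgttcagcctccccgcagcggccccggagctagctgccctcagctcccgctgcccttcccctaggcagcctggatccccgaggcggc

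Pgr window 1, chr9:8899583-8899832, plus strand: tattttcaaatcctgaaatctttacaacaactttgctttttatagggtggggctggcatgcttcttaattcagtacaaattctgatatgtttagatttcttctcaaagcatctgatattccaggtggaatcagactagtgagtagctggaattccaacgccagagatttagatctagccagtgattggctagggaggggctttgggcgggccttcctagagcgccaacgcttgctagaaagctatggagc

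Nr3c2 window 1, chr8:76902080-76902329, plus strand: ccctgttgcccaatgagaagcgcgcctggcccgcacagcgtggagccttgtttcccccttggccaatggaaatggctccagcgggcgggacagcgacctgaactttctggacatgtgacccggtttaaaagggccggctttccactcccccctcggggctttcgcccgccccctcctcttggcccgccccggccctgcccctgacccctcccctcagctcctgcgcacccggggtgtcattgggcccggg

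On both strands 5 motifs were searched: the STAT palindrome TTCNNNGAA, the TCF/LEF motif CTTTGAT of WNT-responsive genes, the NR5A motif CAAGGTCA of the steroidogenic factor SF-1, the oestrogen receptor palindrome (GGTCA and TGACC with 3 free bases between), and the palindrome that the glucocorticoid, mineralocorticoid and progesterone receptors share (AGAACA and TGTTCT with 3 free bases between). Prlr window 2 held the STAT palindrome 110 to 102 bases before the start and the TCF/LEF motif on the minus strand, 222 to 216 bases before it. Of the other 9 windows, the second of Esr1 held the STAT palindrome, 188 to 180 bases before its start, and no other match was found. Among 32851 mouse windows of the same length, 7.02% held the STAT palindrome, 3.21% the TCF/LEF motif, 1.33% the NR5A motif, 0.0639% the oestrogen receptor palindrome and 0.00913% the shared steroid receptor palindrome. These matches describe letters only. The counts are per gene, over 12 annotated transcripts for Prlr and 10 for Ghr, and cannot say which start was used.

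Esr1 (ENSMUSG00000019768, chromosome 10, 4611593 to 5005614, GRCm38), the oestrogen receptor alpha, was measured well above background in every library but varied widely between mice. Female controls 1 to 4 stood at 28.9, 48.9, 56.2 and 37.0 CPM, and female GOF 1 to 4 at 23.4, 74.1, 70.7 and 30.0 CPM. Male controls stood at 14.6, 32.6, 31.9 and 26.6 CPM, and male GOF at 24.5, 5.14, 19.5 and 37.1 CPM. The highest libraries were female and the lowest male, and every pair of groups overlapped. Esr1 did not pass in any of the 5 comparisons. The log2 fold change of GOF against control was 0.21 (95% interval -0.75 to 1.17) in females and -0.30 (-1.26 to 0.67) in males, so a 2-fold rise in females or a 2-fold fall in males lies within the error. Males against females gave -0.69 ± 0.493 (SE; edgeR adjusted p 0.330) in controls and -1.20 ± 0.498 (0.0836) in GOF. The GOF difference passed with DESeq2 (-1.19, adjusted p 0.0362) and without female GOF 1 (adjusted p 0.0486) or male GOF 4 (0.0437).

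Within females, Esr1 parted the libraries by the number in the sample titles, which falls into 3 ranges. The 5 female libraries of the middle range, 3 controls and 2 GOF, stood at 37.0 to 74.1 CPM, and the 3 with lower or higher numbers at 23.4 to 30.0 CPM, with no overlap. No male library lies in the middle range, so for its 5 female libraries title range and sex cannot be told apart. In the lowest range 2 female libraries averaged 26.2 CPM and 5 male libraries 21.8 CPM. In the highest range 1 female library stood at 30.0 CPM and 3 male libraries averaged 27.7 CPM. With the range as a covariate the log2 fold change of males against females in controls became 0.15. What the numbers stand for is not given in the labels, and their part in the sex difference was not tested further.

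Esr2 (ENSMUSG00000021055, chromosome 12, 76120419 to 76177259), the oestrogen receptor beta, was close to the limit of detection. It had 6, 6, 4 and 1 counts in female controls 1 to 4, 0, 0, 3 and 2 in female GOF, 0, 6, 2 and 1 in male controls, and 1, 0, 1 and 0 in male GOF. A count of 3 corresponds to 0.0687 to 0.0968 CPM in these libraries. Summed over each group, female controls held 17 counts against 5 in female GOF, a ratio of 3.70 after scaling for depth (exact 95% interval 1.31 to 12.8), and male controls 9 against 2, a ratio of 4.83 (1.0 to 45.9). These intervals cover counting error only, not the spread between mice, and Esr2 was not part of the model across genes.

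Pgr (ENSMUSG00000031870, chromosome 9, 8899833 to 8968611), the progesterone receptor, was low in controls and nearly absent from GOF adrenals of both sexes. Female controls 1 to 4 stood at 0.485, 1.45, 0.492 and 0.558 CPM and female GOF at 0.0292, 0.137, 0.0299 and 0.0286 CPM. Male controls stood at 0.492, 1.90, 0.742 and 0.897 CPM and male GOF at 0.0795, 0.0286, 0.0501 and 0.0604 CPM. Every control library lay above every GOF library, and the highest control of each sex, female control 2 and male control 2, was also the one with the highest summed level of medulla markers (10855 and 11465 CPM). In counts this was 98 over the 4 female controls against 9 in female GOF, a ratio of 11.8 (exact 95% interval 5.99 to 26.6), and 138 against 8 in males, a ratio of 18.5 (9.14 to 43.7), counting error only.

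The fitted log2 fold change of Pgr was -3.57 ± 0.618 (SE; edgeR adjusted p 0.000411) in females and -4.12 ± 0.625 (0.000128) in males. Since the GOF libraries held only 1 to 6 counts each and Pgr passed the filter through the controls, a difference was built into its being tested, and these p-values are not support for one. At so few counts the fitted values depend on the prior count and are not bounds. The female value was -4.55 without female GOF 2, which held 6 of the 9 GOF counts, and the values were -1.19 and -1.46 with limma on log2(FPKM + 0.1), where the pseudocount exceeds the FPKM of every GOF library. Without the 3 libraries that hold liver or kidney transcripts they were -4.00 and -3.62, and both stayed called. The sexes overlapped in both genotypes, with log2 fold changes of 0.44 (-0.52 to 1.40) in controls and -0.11 (-1.59 to 1.36) in GOF, and the interaction was -0.55 (-2.37 to 1.27), a width within which a several-fold difference between the sexes would not be seen.

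Nr3c1 (ENSMUSG00000024431, chromosome 18), the glucocorticoid receptor, which binds corticosterone in mice, was lower in GOF adrenals of both sexes. Female controls 1 to 4 stood at 77.1, 73.9, 69.2 and 74.2 CPM and female GOF at 34.7, 34.5, 32.9 and 35.7 CPM. Male controls stood at 56.9, 86.1, 90.4 and 77.5 CPM and male GOF at 44.8, 39.3, 43.4 and 43.6 CPM. Both GOF groups lay below both control groups, and male controls spread the most, with male control 1 lowest. Nr3c1 was 2.14-fold lower in GOF females (log2 fold change -1.10 ± 0.109 SE, edgeR adjusted p 4.55e-06) and 1.82-fold lower in GOF males (-0.86 ± 0.108, 2.32e-05). The interaction of 0.23 ± 0.152 did not pass (0.405).

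Sex differences of Nr3c1 were small. In controls the groups overlapped, with a log2 fold change of males against females of 0.08 (-0.13 to 0.29). Without male control 1 it was 0.20 and passed (edgeR adjusted p 0.0422). In GOF every male library lay above every female library, at 0.31 ± 0.108 (SE; edgeR adjusted p 0.0397). That call was lost in 9 of the 16 fits that left out 1 library: female control 2 or 4, any female GOF, or male GOF 1, 3 or 4, with adjusted p up to 0.0892 and log2 fold changes that stayed between 0.30 and 0.34. It was also lost with the title range as a covariate (0.27, adjusted p 0.154) and without the 3 libraries with liver or kidney transcripts (0.31, adjusted p 0.0587).

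Nr3c2 (ENSMUSG00000031618, chromosome 8, 76899442 to 77245012), the mineralocorticoid receptor, which binds aldosterone and corticosterone, was lower in GOF adrenals of both sexes. Female controls 1 to 4 stood at 21.3, 23.0, 19.5 and 20.9 CPM and female GOF at 16.6, 11.6, 17.6 and 12.2 CPM. Male controls stood at 20.2, 24.3, 23.9 and 22.8 CPM and male GOF at 14.3, 10.7, 10.9 and 13.0 CPM. No GOF library reached the lowest control. GOF differed from control by -0.55 ± 0.139 on the log2 scale in females (SE; edgeR adjusted p 0.00602) and by -0.90 ± 0.140 in males (0.000164). The interaction of -0.35 (95% interval -0.73 to 0.04) did not pass. The sexes overlapped in controls (0.10, -0.17 to 0.38) and in GOF (-0.24, -0.52 to 0.03).

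Prlr (ENSMUSG00000005268, chromosome 15, 10177238 to 10349180), the prolactin receptor, was the one tested receptor called between the sexes in both genotypes. Female controls 1 to 4 stood at 470.5, 588, 571 and 399.9 CPM and female GOF at 545, 604, 413 and 463 CPM. Male controls stood at 212, 194, 157 and 153 CPM and male GOF at 314, 299, 275 and 349.5 CPM. The 2 female groups overlapped throughout, male GOF lay between the females and the male controls, and neither male group overlapped any other. Males were 2.83-fold lower than females in controls (log2 fold change -1.50 ± 0.152 SE, edgeR adjusted p 9.4e-06), and 1.64-fold lower in GOF (-0.71 ± 0.149, 0.00236). Both calls held in every alternative fit, but the GOF difference does not reach a size threshold of 1 on the log2 scale.

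Prlr was higher in GOF than in control males by 0.79 ± 0.149 on the log2 scale (SE; edgeR adjusted p 0.000828). No such difference was detectable in females, where the 95% interval of the log2 fold change ran from -0.29 to 0.29. The difference between these effects, 0.79 ± 0.210 (SE), was just past the threshold (edgeR adjusted p 0.0464). Its size kept between 0.71 and 0.91 when 1 library was left out, but the call was lost in 12 of those 16 fits, without female control 1, 2 or 3, female GOF 1, 3 or 4, male control 2, 3 or 4, or male GOF 1, 3 or 4, with adjusted p up to 0.101. It was lost as well without the 3 libraries with organ transcripts (0.79, adjusted p 0.195), with the title range as a covariate (0.79, 0.0671) and with no filter on low counts (0.84, 0.0553).

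**Figure D3:**
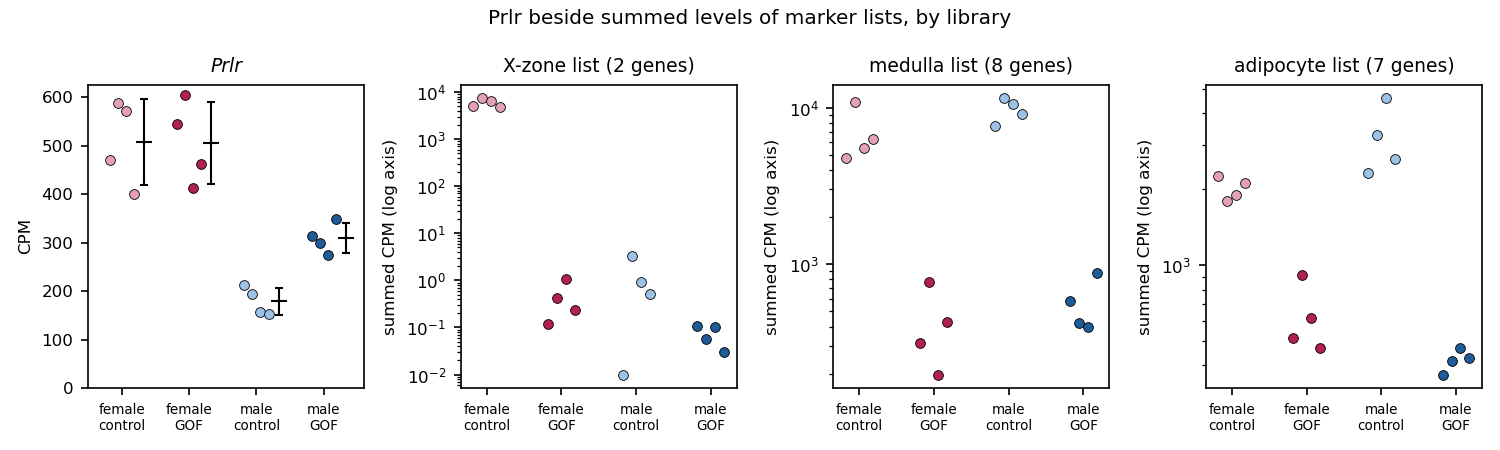
Prlr level (left, CPM, linear axis from 0, mean and SD) beside the summed CPM of marker lists in each library (log axes), by group. The X-zone sum is 4910 to 7358 CPM in female controls and at most 3.25 CPM elsewhere (male control 1, at 0, is drawn at 0.01). Prlr is at 399.9 to 588 CPM in female controls and at 413 to 604 CPM in female GOF, and the part of the X-zone in its level was not tested.

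Ghr (ENSMUSG00000055737, chromosome 15, 3317760 to 3583492), the growth hormone receptor, had the largest fall among the tested receptors other than Pgr. Female controls 1 to 4 stood at 119, 120.2, 153 and 120.3 CPM and female GOF at 34.1, 51.6, 49.6 and 35.0 CPM. Male controls stood at 99.9, 158, 181 and 137 CPM and male GOF at 38.9, 27.5, 39.0 and 45.5 CPM. Even the lowest control library, male control 1, lay well above the highest GOF library, female GOF 2. Ghr was 3.0-fold lower in GOF females (log2 fold change -1.59 ± 0.197 SE, edgeR adjusted p 3.1e-05) and 3.82-fold lower in GOF males (-1.93 ± 0.199, 4.79e-06). The sexes overlapped in both genotypes, with log2 fold changes of 0.17 (-0.21 to 0.55) and -0.18 (-0.56 to 0.20), and the interaction of -0.35 (-0.88 to 0.19) did not pass. Mouse liver and kidney express Ghr strongly. Without the 3 libraries with such transcripts the values were -1.50 and -1.89, both called.

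Markers of several adrenal compartments moved with genotype beside the 4 receptors that fell. Of all tested genes 20.6% were called lower in GOF females and 21.8% in GOF males. The 8 medulla markers were called lower in GOF, 8 of 8 in each sex, and summed to 4775 to 10855 CPM in female controls against 198 to 769 CPM in female GOF, and to 7606 to 11465 against 396 to 883 CPM in males. Of 7 adipocyte markers 6 were lower in females and 7 in males, with sums of 1790 to 2264 against 468 to 918 CPM and 2318 to 4592 against 368 to 468 CPM. Of 6 capsule markers 5 and 6 were lower, with sums of 635 to 721 against 171 to 356 CPM and 913 to 2447 against 370.2 to 437 CPM. Of 5 zona glomerulosa markers 3 and 5 were lower, with sums of 963 to 995 against 387 to 544 CPM and 1016 to 1539 against 333.3 to 493 CPM. No list had a marker at 0 in every library of a group except kidney tubule and skeletal muscle in GOF. Other cortical lists did not fall as a whole. Of 3 zona fasciculata markers 1 was called lower in females and 0 were called in males. Of 5 steroidogenic cortex markers 1 was called higher and 1 lower in each sex. The part of these compartments in the receptor falls was not tested. Of 6 macrophage markers 1 was called higher in GOF females and 3 in GOF males, and none lower, where 39.6% and 36.9% of all tested genes were called in either direction, and in the male comparison 15.2% were called higher in GOF. Their sums were 85.2 to 183 against 155 to 237 CPM in females and 201 to 289 against 312 to 674 CPM in males, and their part in the Prlr rise in males was not tested. Between the sexes in controls, 5 of 6 capsule and 4 of 6 macrophage markers were called higher in males and both X-zone markers lower, where 23.4% of all tested genes were called in either direction. In GOF, 5 of 6 capsule, 4 of 6 macrophage and 5 of 5 endothelium markers were called higher in males, as were 13.3% of all tested genes, with endothelium sums of 395 to 450.0 CPM in females and 551.05 to 732 CPM in males. Their part in the sex differences of Prlr and Nr3c1 was not tested. The X-zone markers summed to 4910 to 7358 CPM in female controls and to 0.117 to 1.05 CPM in female GOF, where they were close to the limit of detection. Prlr was not detectably changed between these 2 groups, and the part of the X-zone in its level was not tested.

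The genes around the receptors were taken as 6 lists of 79 genes in all, on the same fit. Of 15 tested corticosteroid target genes, 6 were called lower in GOF females and none higher, and in males 4 lower and 1 higher, with median log2 fold changes of -0.61 and -0.35 against 0.05 and 0.01 over all tested genes. Of all tested genes 39.6% were called in females (20.6% lower) and 36.9% in males (21.8% lower), so the number of targets called in either direction was near the general share. Without the 3 libraries with organ transcripts the counts were 4 and 5. Among those called lower in both sexes were Pdk4, an inhibitor of pyruvate use (-1.82 ± 0.463 and -3.49 ± 0.496, SE), and Tsc22d3, the glucocorticoid-induced leucine zipper. Zbtb16, a transcription factor, was called lower in females (-2.44 ± 0.466), from 14.3 to 38.8 CPM in controls to 1.57 to 7.90 CPM in GOF, and in males had -0.74 with an adjusted p of 0.200. Sgk1, a kinase known as an aldosterone target, was called higher in males (0.70 ± 0.115, edgeR adjusted p 0.000271).

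Between the sexes most of the 15 corticosteroid targets did not pass. In controls 3 were called higher and 1 lower in males, and in GOF 5 higher and none lower, where 23.4% and 29.6% of all tested genes were called. The median log2 fold changes were 0.48 and 0.25, against 0.08 and 0.03 over all tested genes. The control count of 4 was 2 without female control 2, without female control 3 or without the 3 libraries with organ transcripts. Fkbp5, a chaperone of the glucocorticoid receptor that glucocorticoids raise, stood at 70.3, 85.4, 67.5 and 53.0 CPM in female controls and 213, 136, 198 and 252 CPM in male controls. In GOF it stood at 40.8, 60.1, 25.6 and 26.3 CPM in females and 178, 71.5, 139.5 and 145 CPM in males. No male library of either genotype overlapped the females of that genotype, and the log2 fold changes of males against females were 1.53 ± 0.306 (SE; edgeR adjusted p 0.00274) in controls and 1.80 ± 0.309 (0.000643) in GOF. Nfkbia, the inhibitor of NF-kB, was called lower by GOF in females (-1.14 ± 0.160) and not in males (-0.01), an interaction of 1.12 ± 0.224 (edgeR adjusted p 0.0123). Without the 3 libraries with organ transcripts it was 1.13 (0.0723).

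Of 11 tested oestrogen and progesterone target genes, 3 were called lower and 1 higher in GOF females, and 5 lower and 1 higher in GOF males, with medians of -0.30 and -0.15, where 39.6% and 36.9% of all tested genes were called in either direction. The 3 lower in females were also called lower in males: Cxcl12, a chemokine (-2.47 ± 0.279 and -2.16 ± 0.274, SE), Igfbp4, which binds insulin-like growth factors (-0.78 and -0.78), and Ccnd1, cyclin D1 (-0.62 and -0.68). For Igfbp4 the female value was -0.47 without the 3 libraries with organ transcripts and -0.52 without female control 1, and both stayed called. Greb1, an oestrogen receptor cofactor, was higher in males, at 1.38 ± 0.201 in controls (edgeR adjusted p 0.000242) and at 1.60 ± 0.202 in GOF (5.76e-05). Its direction was opposite to that of Esr1, whose values between the sexes did not pass.

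Growth hormone and prolactin signalling was given by 18 genes, all tested. In GOF females 5 were called lower and 1 higher, and in GOF males 7 lower and 1 higher, with medians of -0.18 and -0.06. These counts stand beside 39.6% and 36.9% of all tested genes called. The female count of 6 was 2 without the 3 libraries with organ transcripts, and the male count of 8 was 5 without male GOF 3. Igf1, the insulin-like growth factor that growth hormone induces, stood at 33.3, 46.8, 68.9 and 43.8 CPM in female controls against 8.36, 22.5, 23.2 and 17.9 CPM in female GOF, or -1.42 ± 0.373 on the log2 scale (SE; edgeR adjusted p 0.00786). Without those 3 libraries it was -1.33 (0.0512). In males it stood at 41.4, 81.3, 92.9 and 82.8 against 50.4, 16.4, 29.9 and 27.8 CPM (-1.26 ± 0.369, edgeR adjusted p 0.0156). Male GOF 1 lay above male control 1, so the male groups overlapped. Igfals, which binds IGF1 in the circulation, was low and fell in both sexes (-2.89 ± 0.497 and -4.70 ± 0.539), and Irs1, an adaptor of insulin and cytokine signals, fell by 0.65 and 0.82 on the log2 scale.

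Jak2 and the STAT5 genes act directly below Prlr and Ghr. Jak2 did not pass in any comparison, with 95% intervals of -0.13 to 0.12 for GOF against control in females and -0.08 to 0.17 in males. Stat5b stood at 217 to 242 CPM in female controls, above every other group (118 to 180.4 CPM). It was called lower in males than in females in controls (-0.67 ± 0.0904 SE, edgeR adjusted p 0.000129) and lower in female GOF than in female controls (-0.46 ± 0.0901, 0.00103). Stat5a was called lower in males in controls (-0.56 ± 0.133), and Socs2, a feedback inhibitor that STAT5 induces, did not pass in any comparison.

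**Figure D4:**
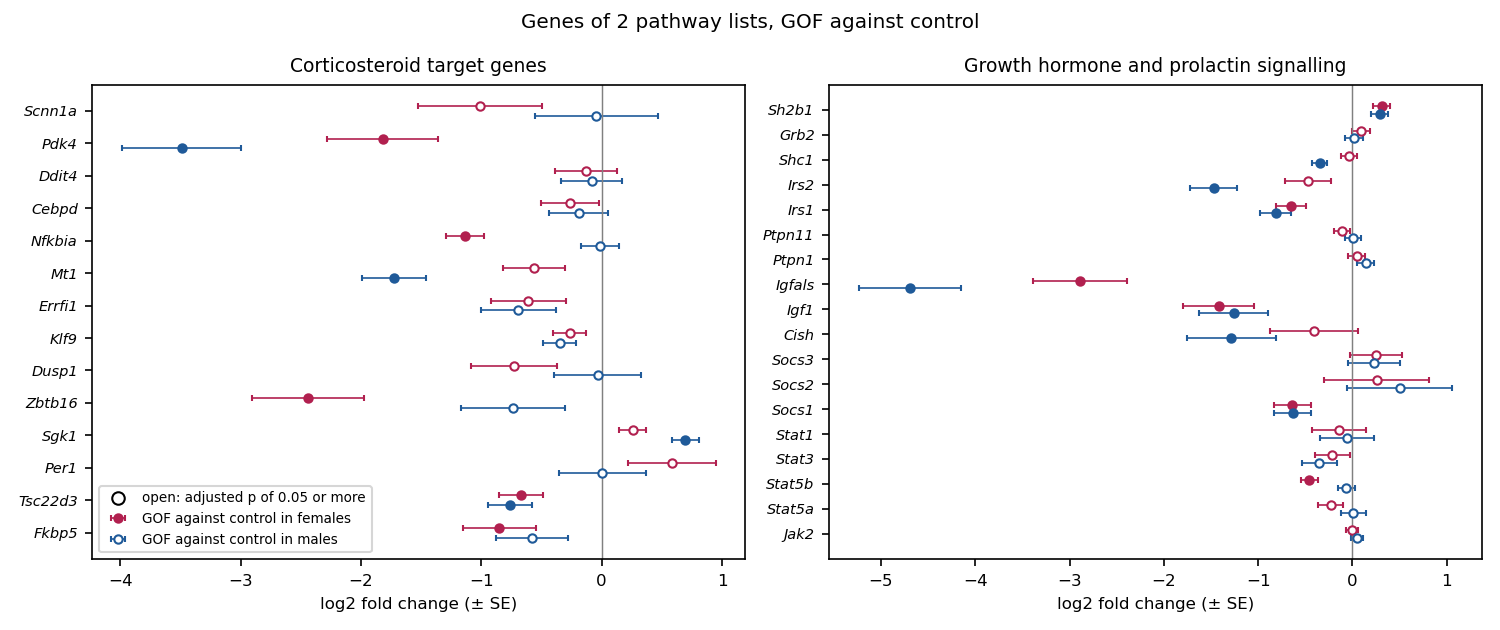
Log2 fold change of GOF against control (± SE) for tested genes of the corticosteroid target list (14 of 15) and of the growth hormone and prolactin signalling list, in females and males; filled symbols have an adjusted p under 0.05. Called genes lie mostly left of 0, with Igfals and Pdk4 among the farthest, and Jak2 lies near 0 in both sexes.

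The receptors' ligands and the enzymes that make or break them were the next list. Prl had 0 counts in every library and Gh at most 3, Cyp19a1, the aromatase, had at most 7, and Hsd17b2 was not tested either, with 388 counts in the library labelled male control 2, which holds liver transcripts. All 5 tested enzymes were called in GOF males (4 lower, 1 higher) and 4 in GOF females, all lower, beside the same general shares of 36.9% and 39.6%. Hsd11b2 had 5 to 11 counts in every GOF library, and Sult1e1 had 1 to 4 in every female library. Both passed the filter on low counts through the groups where they are higher, so their place in these counts is a description. Hsd17b7, a 17-beta-hydroxysteroid dehydrogenase, was called lower in GOF in females (-2.04 ± 0.324, SE) and males (-1.35 ± 0.326) and lower in males than in females in controls (-2.42 ± 0.329). Hsd11b1, which regenerates active glucocorticoid, was lower in GOF in both sexes (-0.77 ± 0.211 and -0.93 ± 0.210). Hsd11b2, which inactivates glucocorticoid in kidney, was at 26.8 CPM for female control 1 and at 4.13 CPM for female control 3, the libraries with kidney transcripts, against 0.910 and 1.03 CPM in the other female controls. Its GOF difference in females was -5.15, or -3.13 without female control 1 and -2.08 without all 3 libraries with organ transcripts. Sult1e1, which inactivates oestrogen, was higher in male than in female controls, with 465 counts against 9.

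Related receptors were given by a list of membrane receptors for progesterone and oestrogen, progesterone receptor membrane components and the oestrogen-related orphan receptors, which do not bind oestrogen. Paqr5, a membrane progesterone receptor, stood at 27.5, 26.6, 22.7 and 16.4 CPM in female controls and 0.380, 1.74, 0.986 and 0.972 CPM in female GOF. In males it stood at 5.05, 4.45, 7.05 and 11.2 CPM in controls and 16.7, 4.06, 10.4 and 14.3 CPM in GOF. Male controls lay below female controls and male GOF above female GOF. The interaction was 5.21 ± 0.652 (SE; edgeR adjusted p 0.000749), and 4.92 (0.0107) without the 3 libraries with organ transcripts. Female control was also the one group with X-zone markers, and their part in this pattern was not tested. Of the 8 tested genes in this list, 2 were called in each genotype comparison. Among 14 chaperones and coregulators of the nuclear receptors, 3 were called higher in GOF females (Ppid and Crebbp among them) and 1 in GOF males (Ppid, 0.47 ± 0.0984), and none lower, where 39.6% and 36.9% of all tested genes were called. The male count was 2 to 4 under most other settings tried.

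Genes with the most similar pattern over the 16 libraries were found by the root-mean-square difference of centred log2 CPM, among 13836 protein-coding genes. For Prlr, Fam126a (0.197) and Frrs1 (0.273) were among the nearest, against a spread of 0.647 for Prlr itself. Fam126a averaged 285 CPM in both female groups, 113 CPM in male controls and 173 CPM in male GOF. For Ghr they were Acsl1 (0.211), Chpt1 (0.246) and Mmd (0.259), against 0.922. Nearest to Nr3c1 were Arl4a, Ppp2r5a and Rin2 (0.155 to 0.164), against 0.516, and to Nr3c2 Mageh1, Anxa6 and Oxr1 (0.160 to 0.167), against 0.415. Pgr was followed by Gpr45, Dgkg and Nalcn (0.239 to 0.277), against 1.57, with Gpr45 at 2.21 and 3.25 CPM in female and male controls and 0.229 and 0.248 CPM in GOF. No gene came close to Esr1, whose nearest were Rgs9bp, Nxnl1 and Efcab12 (0.524 to 0.585), against 0.896.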

How the data were processed

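Total RNA of frozen adrenal glands was purified on columns, samples with an RNA integrity number under 7.0 were left out, and NEBNext Ultra libraries were sequenced as paired 150 bp reads, per the labels' protocols. The submitters' processing notes name Bowtie2 2.2.3, TopHat2 2.0.12, HTSeq 0.6.1 and DESeq 1.18.0 without their roles. Genome build and strandness are not given in the sources used here, so reads of overlapping or antisense genes cannot be told apart. The deposited counts are whole reads per Ensembl gene, not normalized. The deposited FPKM values were scaled by the authors to gene length and library total, and that length equals the GENCODE M21 mean transcript length (within 1%) in 97.1% of 20931 genes checked. Symbols and coordinates come from that annotation (GRCm38), which holds 54809 of the 54838 identifiers.

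Groups came from the labels, and replicate numbers follow accession order. The submitters describe 4 individual mice per group, and no 2 libraries of a group were alike within counting noise (chi-square per degree of freedom at least 26.8). filterByExpr kept 18214 of 34196 genes with a count. A robust quasi-likelihood model in edgeR 4.0.16 (R 4.3.3, TMM factors, 16 libraries, 4 group means) gave 5 contrasts, with Benjamini-Hochberg adjustment over the 18214 genes. Each SE was derived from the log2 fold change and the F value, and 95% intervals assume a normal error. Alternatives were DESeq2 1.42.0, other scaling factors and filters, limma 3.58.1 on log2 FPKM or with voom weights, title range as a covariate, libraries left out, and a size threshold. In counts simulated for GOF against control in females, 199 of 17945 genes were changed. Of genes changed 2-fold 59.6% were recovered, and of those changed 4-fold 82%, and 2.1% of calls were unchanged genes. For the interaction, with 197 of 17910 genes changed, 43.9% and 76.8% were recovered, and 4% of calls were unchanged genes. In the data 39.6% of tested genes were called in that female comparison, so these rates do not carry over to it. Receptors, lists and alternatives were chosen with earlier results of these data known. Named genes were all receptors, the list genes past the threshold (with values for at most 4 per list and comparison by p, others by values where a comparison needed them), and the 3 nearest genes per receptor; a few of the genes this rule names are not reported here. Other list genes given with values were chosen after these were seen.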

Additional observations from a re-analysis of the deposited data

Results flagged for a closer look

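Within single groups of 4 libraries, 3 receptor values stood apart by Dixon's test, in which the gap to the nearest library is set against the range of the group. Pgr was 1.45 CPM in female control 2, against 0.485 to 0.558 CPM in the other female controls. Pgr was 0.137 CPM in female GOF 2, against 0.0286 to 0.0299 CPM in the others of that group, a difference between 6 counts and 1 count. Ghr was 153 CPM in female control 3, against 119 to 120.3 CPM in the other female controls, and that library also holds kidney tubule transcripts (167 CPM). Female control 1, with more of them (966 CPM), had the lowest Ghr of the group. Chance alone gives such a value in about 1 of 20 groups, and the cause was not tested.

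The effect of GOF was called different between the sexes for 1 of 6 tested receptors and 3 genes of the pathway lists. The call was by the interaction term of edgeR's quasi-likelihood test, which called 4.21% of all tested genes. The 3 were 1 of 15 tested corticosteroid targets, 1 of 5 ligand enzymes and 1 of 8 related receptors. None was called among 11 oestrogen and progesterone targets, 18 growth hormone and prolactin signalling genes and 14 chaperones and coregulators. The number of list genes called was thus near the general share. Among the marker lists, 3 adipocyte genes and 1 gene each of the zona glomerulosa, X-zone and liver lists were called as well. For Prlr the male log2 fold change exceeded the female by 0.79, for Nfkbia by 1.12, for Hsd17b1 by 2.01 and for Paqr5 by 5.21. Without the 3 control libraries that hold liver or kidney transcripts these were 0.79 for Prlr (adjusted p 0.195), 1.13 for Nfkbia (0.0723), 1.74 for Hsd17b1 (0.0576) and 4.92 for Paqr5 (0.0107). Hsd17b1 stood at 5.71 CPM in female control 1, against 2.0 to 3.64 CPM in the other female controls.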

How the results depend on the processing

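No paired analysis was possible because the labels give no replicate numbers, litters or shared days. Apart from the size threshold, over 357 alternative values of the 13 receptor differences past the threshold, 331 kept direction and call, 26 lost the call and none reversed. The 13 include both genotype differences of Pgr, which were built into its being tested, so its share of the kept calls is not support for them. Of 461 values of the 17 others, 4 passed and 24 changed sign, and the cause of these was not tested.

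With a size threshold of 1 on the log2 scale, 3 receptors were called in GOF against control in females (4 as reported) and 2 in males (5 as reported). Each of these counts includes Pgr. Between the sexes in controls the number called was 1 to 2 over the 16 fits without 1 library. In GOF it was 1 with the title range as a covariate, 1 without the 3 libraries with organ transcripts, 0 with the size threshold and 1 to 2 without 1 library. For the interaction it was 0 with no filter, 0 with the covariate, 0 without the 3 libraries, 0 with the size threshold and 0 to 1 without 1 library.

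Signs changed only where the reported difference did not pass, except for Hsd11b2 between the sexes in controls, which was 0.62 without the 3 libraries. For Esr1, GOF against control was -0.10 in females with voom weights and -0.092 to 0.45 without 1 library, and -0.70 to 0.012 in males. Its sex difference in controls was 0.15 with the covariate. For Pgr, the sex difference in controls was -0.50 without the 3 libraries and -0.065 to 0.97 without 1 library. In GOF it was 0.0079 with limma on log2 FPKM and no filter, 0.39 with voom weights, 0.55 with the covariate and -0.33 to 0.84 without 1 library. The Pgr interaction was 0.38 without the 3 libraries and -1.09 to 0.42 without 1 library. Nr3c1 between the sexes in controls was -0.0018 to 0.20 without 1 library. Prlr in females was 0.0583 with limma on log2 FPKM (pseudocount 1), 0.0585 with a pseudocount of 0.1 with or without a filter, 0.0346 with the covariate, 0.0316 without the 3 libraries and -0.14 to 0.0765 without 1 library. Ghr between the sexes in GOF was 0.0185 with the covariate. With limma on log2(FPKM + 0.1) the median log2 fold change of all genes for GOF against control in males was 0.119, against 0.0071 as reported, and with upper-quartile factors that of the interaction was 0.047, against -0.0554.

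Between 31275146 and 43003968 counts per library, Esr2 could not be tested, and sex differences of Pgr in GOF rest on 1 to 6 counts per library.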

Other observations

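Socs2, a feedback inhibitor of growth hormone signalling, and Esr1 were high in the same female libraries. This was noticed after the values were seen and is given as values. Socs2 stood at 24.7, 56.9, 68.7 and 24.2 CPM in female controls 1 to 4 and at 16.6, 104, 67.2 and 20.04 CPM in female GOF 1 to 4. Esr1 stood at 28.9, 48.9, 56.2 and 37.0 CPM and at 23.4, 74.1, 70.7 and 30.0 CPM in the same libraries. Among the 8 females, female controls 2 and 3 and female GOF 2 and 3 were the 4 highest for both genes, and all 4 carry title numbers of the middle range, as does female control 4. The males did not share this order. Socs2 stood at 33.2, 23.4, 23.0 and 30.8 CPM in male controls 1 to 4, where Esr1 stood at 14.6, 32.6, 31.9 and 26.6 CPM, with male control 1 highest for Socs2 and lowest for Esr1. In male GOF 1 to 4 Socs2 stood at 57.3, 14.3, 49.1 and 35.2 CPM and Esr1 at 24.5, 5.14, 19.5 and 37.1 CPM, with the same lowest library and different highest ones. Cish, another inhibitor of this pathway, was also highest among females in female controls 2 and 3 and female GOF 2, at 7.39, 6.34 and 7.44 CPM.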
